A study of Mus musculus with 8 samples.

Results

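miR-21 and miR-21* are the guide and passenger arms of a single microRNA hairpin, and both were followed here across 8 arrays of mouse bone-marrow-derived dendritic cells. They were chosen by name, as the probes annotated mmu-miR-21 and mmu-miR-21*, and are 2 of the 567 mouse miRNAs on the array. Dendritic cells take up antigen and present it to T cells. The cells came from C57BL/6 mice, an inbred laboratory strain with no further genotype given, and marrow was grown with GM-CSF at 40 ng/ml until the non-adherent cells were collected on day 9. One group of 4 samples was left overnight without stimulus, described in one place as culture without CpG and in another as PBS. The other group of 4 was given ODN1826, a class B CpG DNA, at a final 10 µM. Such DNA holds CG pairs without methyl groups and is recognised by TLR9, a receptor of the endosome. No control oligonucleotide was among the samples, and the labels do not say whether replicates came from separate animals or cultures, so that every p-value rests on the variation among these 8 samples, part or all of which may be technical.

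A miRNA hairpin is cut by Drosha and then Dicer into a short duplex. One strand, the guide, is loaded into an Argonaute protein and pairs with messenger RNAs through its seed, while the other strand, the passenger, is mostly degraded. miR-21 is a broadly expressed miRNA whose primary transcript is made under NF-κB, STAT3 and AP-1, and among its known targets are Pdcd4, which codes for an inhibitor of translation, and Il12a, which codes for a subunit of a cytokine that drives T cell responses. Because both arms are cut from the same precursor, the level of the passenger against that of the guide compares strands of one origin, and a scaling factor common to an array cancels in it.

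The hairpin and its arms are shown because the probes read the arms separately. RefSeq places the Mir21a hairpin on the minus strand at chr11:86584067-86584158 (GRCm38.p6), inside the span of Vmp1, which codes for a membrane protein of autophagy, and 209 bases from the low-coordinate end of that gene. In the hairpin the capitals mark the arms, with 16 bases between them, and in the mature forms the capitals mark the seed, bases 2 to 8.
Mir21a hairpin: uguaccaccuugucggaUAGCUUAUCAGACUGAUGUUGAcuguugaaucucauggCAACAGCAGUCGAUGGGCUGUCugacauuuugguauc
miR-21a-5p (miR-21 on the array): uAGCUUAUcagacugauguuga
miR-21a-3p (miR-21* on the array): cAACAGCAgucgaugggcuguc
The arms have different seeds, and each is 22 bases long. Among the 1738 mature miRNAs of the RefSeq table, 1 other shares the seed of miR-21a-5p and 0 others share that of miR-21a-3p. The sharer is miR-21c, shown with miR-21b because both resemble the guide and neither has a probe of its own name on the array.
miR-21c: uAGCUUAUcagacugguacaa
miR-21b: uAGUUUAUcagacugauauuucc
miR-21c has the first 15 bases of miR-21a-5p and the same base at 16 of 21 positions, and miR-21b has the same base at 18 of 22. Whether either adds to the miR-21 signal was not tested.

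The probes read the arms over different lengths. The array annotation (mm9) gives 2 probes for miR-21, with targets of 20 and 19 bases at chr11:86397622-86397641 and chr11:86397622-86397640. It gives 4 probes for miR-21*, with targets of 15, 14, 13 and 12 bases that all start at chr11:86397584 and end between 86397595 and 86397598. Both arms were called detected on all 8 arrays. Brightness depends on the probe as well as on the RNA, so that neither the share of signal nor the arm ratio below is a ratio of molecules, and only their differences between arrays are compared.

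miR-21 carried between 24.6% and 28.1% of the miRNA signal on each of the 8 arrays. Its share of the summed signal of the mouse miRNAs was 26.2%, 24.6%, 25.1% and 25.7% in untreated replicates 1 to 4 and 26.9%, 26.6%, 24.7% and 28.1% in CpG replicates 1 to 4. The groups overlapped, with the CpG array of replicate 3 among the untreated values. The untreated mean was 25.4% ± 0.69 and the CpG mean 26.6% ± 1.42 (SD, n = 4 arrays per group), a difference of 1.16 percentage points. This difference did not pass (exact two-sided permutation p = 0.2, Benjamini-Hochberg adjusted p = 0.2 over 3 array-level comparisons, smallest possible p = 0.0286). With miRNAs read from the dimmest of their probes that was well above background on all arrays, the difference was 1.99 points (exact permutation p = 0.0286). Any miRNA without such a probe kept the mean over its probes. With normexp background correction the difference was 3.25 points (exact permutation p = 0.0286). Normexp adds an offset of 50 to each of the 567 mouse miRNAs in the sum, so that this share also depends on array brightness. Under the main processing, the difference was 0.633 points without CpG replicate 4 and 1.78 without CpG replicate 3.

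Before any scaling, miR-21 was brighter on every CpG array than on any untreated one. The processed signal, an intensity averaged over its probes, was 13075, 12826, 14649 and 13415 in untreated replicates 1 to 4. It was 17746, 22323, 17593 and 31912 in CpG replicates 1 to 4. The arrays as a whole were brighter too. The 75th percentile of the miRNAs detected on all arrays was 101 to 144 units in the untreated group and 157 to 280.5 in the CpG group, highest on CpG replicates 2 and 4, and the median unscaled log2 difference over the 212 tested miRNAs was 0.60. The unscaled difference of miR-21 was 0.69, and it passed the threshold there (limma adjusted p = 0.0396), as did 41.5% of the tested miRNAs in the same direction. How much of this brightness is RNA amount and how much is array was not tested.

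Scaled to each array's 75th percentile, miR-21 did not pass the test. Its log2 signal, on which 0 is that percentile, was 7.01, 6.69, 6.67 and 6.80 in untreated replicates 1 to 4 and 6.82, 6.47, 6.61 and 6.83 in CpG replicates 1 to 4. The groups overlapped, with 3 of the 4 untreated arrays inside the range of the CpG arrays. The untreated mean was 6.79 ± 0.16 and the CpG mean 6.68 ± 0.18 (SD, n = 4 arrays per group), a difference of -0.11 (SE 0.15, 95% interval -0.44 to 0.22, limma adjusted p = 0.575). The interval spans 0, and the sign depended on the scaling, since the difference was 0.45 when arrays were scaled on bright control features named hur (limma adjusted p = 0.0158). With hur scaling 70 of the 212 tested miRNAs were called higher and 2 lower, and their median difference was 0.36. Against the median of the tested miRNAs, which was -0.19 after 75th percentile scaling, miR-21 lay 0.08 higher. It lay 0.09 higher both without scaling and with hur scaling. These values had to be close, since a single factor per array cancels in the distance to the median, apart from the floor set for dim values. With cyclic loess and quantile normalization, which are not a single factor per array, miR-21 lay 0.351 and 0.105 higher.

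**Figure D1:**
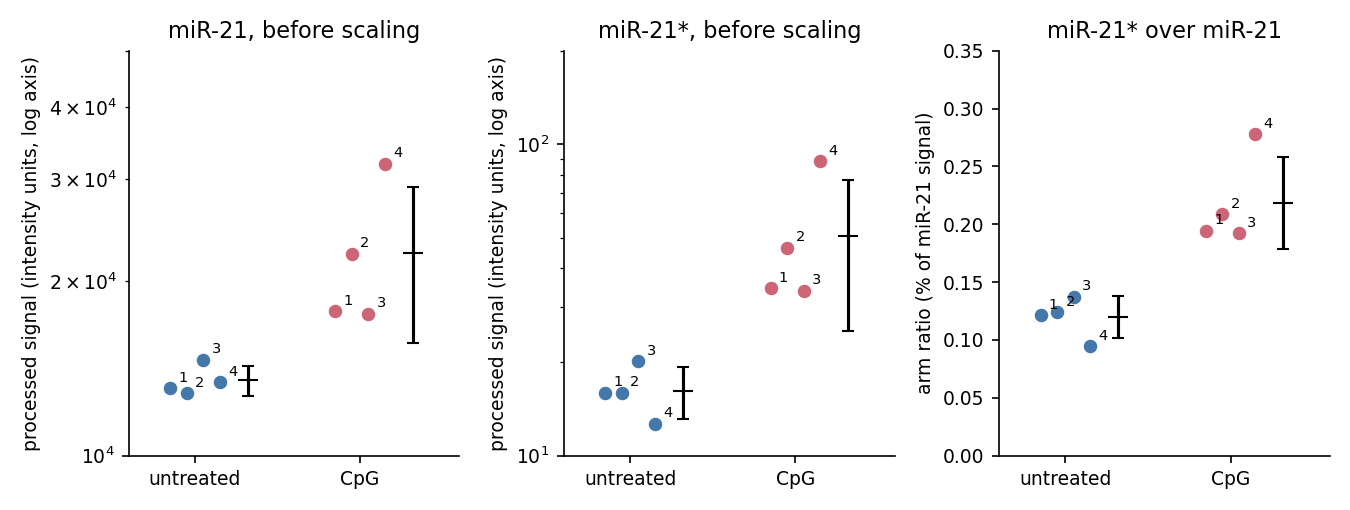
Signal of miR-21 (left) and miR-21* (middle) before scaling, in intensity units on log axes, and their ratio in percent (right, axis from 0), for the 4 untreated (blue) and 4 CpG (red) arrays. Numbers name replicates and bars give mean ± SD; the groups do not overlap in any panel, and CpG replicate 4 is highest in all 3.

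The passenger arm rose with CpG. Before scaling, miR-21* read 15.9, 15.9, 20.1 and 12.7 intensity units in untreated replicates 1 to 4 and 34.5, 46.6, 33.9 and 88.6 in CpG replicates 1 to 4. All CpG arrays lay above all untreated ones, as they did after scaling. The scaled log2 signal was -2.67, -2.96, -2.84 and -3.25 in untreated replicates 1 to 4 and -2.18, -2.44, -2.41 and -1.66 in CpG replicates 1 to 4. The untreated mean of -2.93 ± 0.25 compared with a CpG mean of -2.17 ± 0.36 (SD, n = 4 arrays per group), a 1.69-fold rise and a log2 difference of 0.76 (SE 0.21, 95% interval 0.29 to 1.22, limma adjusted p = 0.0405). Of the 212 tested miRNAs, 7.55% were called higher and 6.6% lower in this comparison, and 7.08% were higher with no overlap between the groups. The call was close to the threshold. It was lost when any 1 array other than CpG replicate 1 was left out, with a log2 difference of 0.59 to 0.84 over the 8 such fits (limma adjusted p up to 0.11). miR-21* was 0.95 above the median of the tested miRNAs both with this scaling and without scaling. These values had to be close, since a single factor per array cancels in them. With quantile normalization and cyclic loess, which are not such a factor, miR-21* was 0.775 and 0.916 above that median.

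**Figure D2:**
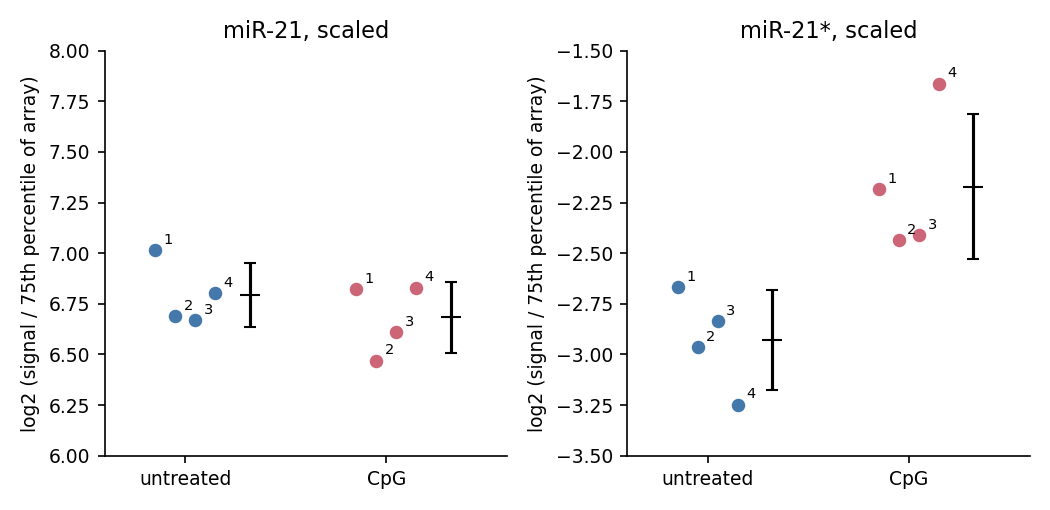
Log2 signal of miR-21 (left) and miR-21* (right) after division by each array's 75th percentile, for 4 untreated (blue) and 4 CpG (red) arrays, on axes of equal span. Numbers name replicates and bars give mean ± SD; the miR-21 groups overlap, while the miR-21* groups do not, with the highest untreated value at -2.67 and the lowest CpG value at -2.44.

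The passenger gained on the guide in every CpG sample. The signal of miR-21* as a percent of that of miR-21 was 0.122%, 0.124%, 0.138% and 0.0945% in untreated replicates 1 to 4. It was 0.195%, 0.209%, 0.193% and 0.278% in CpG replicates 1 to 4. Even the lowest CpG array lay above the highest untreated one. The mean log2 ratio was -9.72 ± 0.23 without and -8.86 ± 0.25 with CpG (SD, n = 4 arrays per group), a difference of 0.87 or 1.82-fold (SE 0.18, 95% interval 0.46 to 1.27, limma adjusted p = 0.00769 over 21 arm pairs). Taken alone, the exact two-sided permutation test gave p = 0.0286, the smallest that 4 against 4 arrays allow, and 0.0857 after adjustment over the 3 array-level comparisons.

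The call on the arm ratio held in each of the 8 fits that left out 1 array, at log2 differences of 0.75 to 0.94 (limma adjusted p up to 0.0361). It was lost without CpG replicates 2 and 4, the brightest arrays, at 0.71 (limma adjusted p = 0.0723). It was also lost with quantile normalization, tried for the ratio after seeing the data, at 0.67 (limma adjusted p = 0.0598). Quantile normalization gives the brightest miRNA of each array the same value, and miR-21 differed by 0 there. That 0.67 is therefore the difference of miR-21* alone and does not compare the arms. With replicate number as a block, neither the call on the arm ratio nor that on miR-21* passed, as set out in the closing section. With normexp background correction, whose added offset of 50 is larger than the untreated miR-21* signal, the sign turned for the ratio, at -0.16 (limma adjusted p = 0.0912), and for miR-21*, at -0.07 (limma adjusted p = 0.657). Within the slide's first row, which held replicates 1 and 4 of each group, the difference was 1.12, and within the second row, with replicates 2 and 3, it was 0.62 (limma adjusted p = 0.228 and 0.0933). The ratio moved with brightness, since CpG replicate 4 had the highest ratio, the highest 75th percentile and the brightest spots of both arms, and the part of brightness in the result was not tested.

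The signal of miR-21 was the mean of 2 probes. The brighter miR-21 probe, of 20 bases, averaged 22891 units in untreated and 37367 in CpG samples, and the dimmer one, of 19 bases, averaged 4092 and 7420. On the unscaled log2 scale these are differences of 0.66 and 0.83, and after scaling they were -0.14 and 0.03. The ratio of the brighter to the dimmer probe was 5.61 ± 0.24 without and 4.99 ± 0.32 with CpG (SD, n = 4 arrays per group), and its groups overlapped (exact two-sided permutation p = 0.0571, adjusted p = 0.0857 over the 3 comparisons). By this test the difference between the probes did not pass.

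None of the spots of either arm was saturated. Of 320 spots over the 8 arrays 0 were flagged as saturated and 0 pixels were at the limit, and the brightest miR-21 spot, at 56624 units on a CpG array, stood at 18.7% of the saturation value. That value was 300887 to 305535 units because each slide position was read at 2 detector gains and bright spots were taken from the lower gain, multiplied by 4.62 to 4.69. The lower gain supplied 77 of the 80 spots of the brighter miR-21 probe and 0 of the 80 spots of the dimmer one. The arms therefore did not reach the scanner's ceiling. Whether the switch of gain bears on the ratio of the miR-21 probes was not tested.

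**Figure D3:**
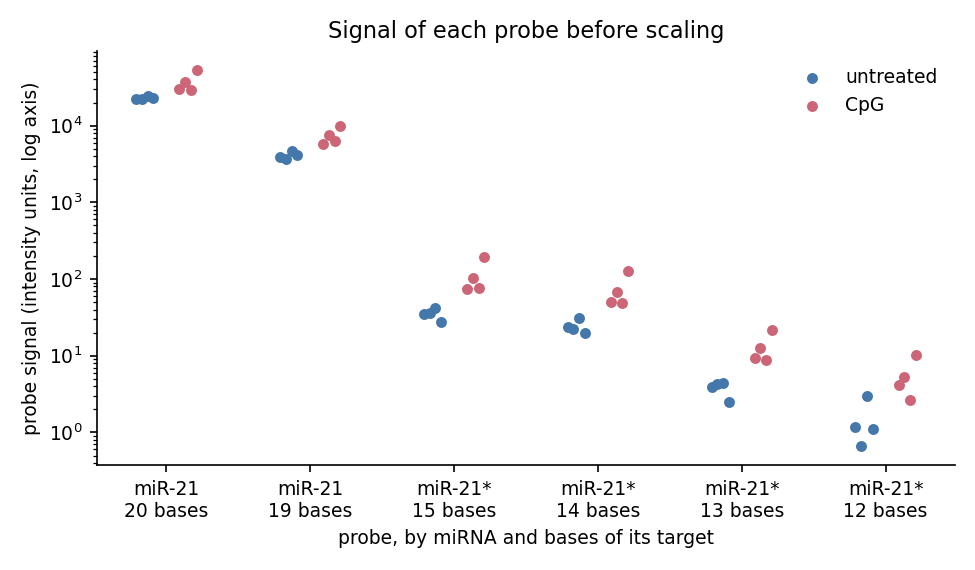
Signal of each probe of miR-21 (targets of 20 and 19 bases) and miR-21* (15, 14, 13 and 12 bases) before scaling, in intensity units on a log axis, with 1 point per array for untreated (blue) and CpG (red) samples. The probes of miR-21* are dimmer the shorter their target, and the 12-base probe is the one whose groups overlap.

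The longer passenger probes carried the miR-21* signal. The probe of 15 bases averaged 35.1 units in untreated and 112 in CpG samples, and the probe of 14 bases averaged 24.3 and 73.2. All 20 spots of each were well above background in each group. The probe of 13 bases averaged 3.78 and 13.1 units, with 0 of 20 untreated and 16 of 20 CpG spots well above background, and that of 12 bases averaged 1.49 and 5.57, with 0 and 3 of 20. In untreated samples these 2 shortest probes were thus near background, while the 13-base probe was measured in most CpG spots. Setting each of the 2 measured miR-21* probes against each miR-21 probe gave 4 ratios, which differed by 0.66 to 0.91 on the log2 scale, and in 4 of the 4 the groups did not overlap. Their common direction is no further evidence, since the probes share the same RNA.

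The arm ratio was then set beside those of other hairpins whose arms, named with and without a star, could both be tested. By name the star arm is the passenger and the other the guide, but in some pairs, miR-674 among them, the star arm was brighter. Among 21 such pairs the ratio of star to guide was called higher in 3 (14.3%) and lower in 2 (9.52%), and in 4 (19%) it was higher without overlap between the groups. The median difference was 0.27, and 15 of the 21 were above 0. The miR-21 pair lay second from the top, next to the let-7d pair at 0.89, named here after its value was seen, which did not pass (limma adjusted p = 0.111). The other pairs called higher were miR-29b* at 0.77 and miR-22* at 0.69 (limma adjusted p = 0.0117 and 0.00769), and in both the guide was near 0 after scaling, at 0.07 and 0.05. Untreated miR-29b* was dim, at a mean of 4.61 intensity units. miR-29 guides are known for targeting collagen transcripts. The intervals of these 3 pairs overlapped widely, and whether they differ from one another was not tested.

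**Figure D4:**
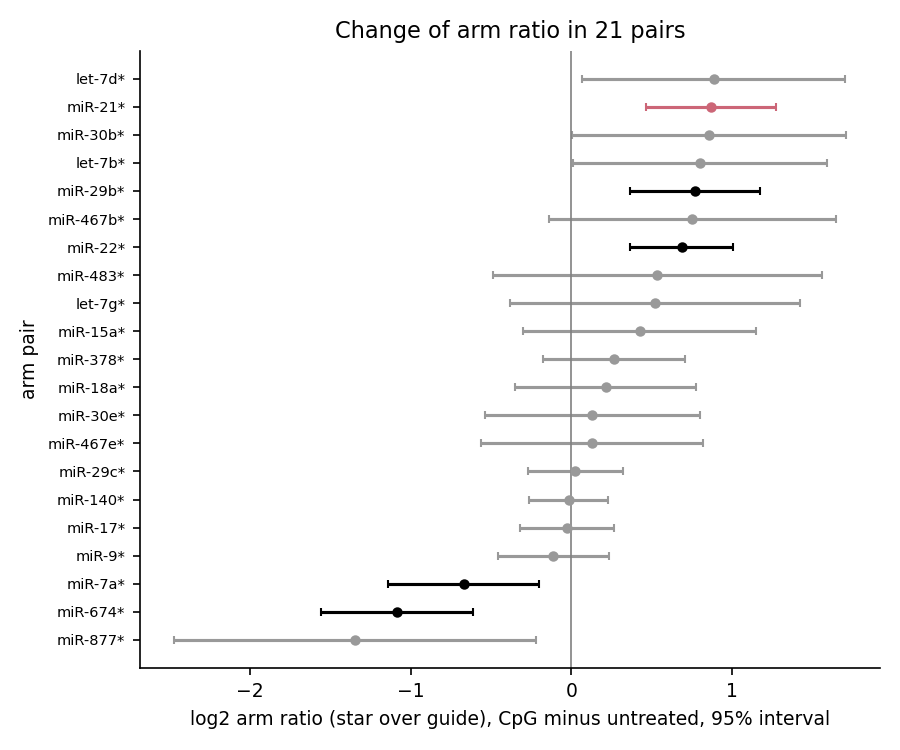
Log2 difference in arm ratio, star over guide, between CpG and untreated samples for 21 arm pairs, with limma 95% intervals. Red marks miR-21, black the other pairs past the adjusted threshold and grey those that did not pass; miR-21* stands at 0.87, and miR-674* and miR-7a* are the pairs called lower.

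The 2 pairs called lower were miR-674*, at -1.08, and miR-7a*, at -0.67 (limma adjusted p = 0.00769 and 0.0459). In both pairs the passenger was near 0 after scaling, at 0.12 for miR-674* and -0.001 for miR-7a*. The guide miR-674 rose by 1.21 (limma adjusted p = 0.0495), and the guide miR-7a differed by 0.67 and did not pass (limma adjusted p = 0.0764). The call on miR-7a* was lost in 6 of the 8 fits that left out 1 array, all but those without untreated replicate 3 or CpG replicate 1. Over the 28 star arms tested by themselves, 4 were called higher and 1 lower, with a median of 0.25, against 7.55% higher, 6.6% lower and a median of -0.19 over all 212 miRNAs.

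miR-21 belongs to the miRNAs known to respond to Toll-like receptors, and its own arms sat differently among them. Of the 11 other miRNAs listed for this response, 10 could be tested, 4 were called higher and 0 lower, where 7.55% of all tested miRNAs were called higher and 6.6% lower. Their median difference was 0.19 against -0.19 over all tested miRNAs. The list was drawn up with earlier results of these data known. The 4 were miR-155, which promotes inflammatory signalling, at 1.92, miR-222 at 1.14, miR-147 at 0.97 and miR-146a, which restrains signalling through TRAF6 and IRAK1, at 0.92 (limma adjusted p = 0.000956, 0.0111, 0.0227 and 0.0355). miR-146b, which has the same seed as miR-146a, was at -0.07 and did not pass (limma adjusted p = 0.742). miR-21* at 0.76 lay below these 4 calls, and miR-21 at -0.11 lay near miR-146b. The calls were lost without 1 array in 2 of the 8 such fits for miR-147 (untreated replicate 2 or CpG replicate 3) and in 6 of 8 for miR-146a (all but untreated replicate 3 and CpG replicate 1).

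The arms followed different miRNAs from array to array. Over the 8 arrays, the scaled log2 signal of miR-21 was most like that of miR-467b (Pearson r = 0.957), miR-19b (r = 0.926) and miR-29c (r = 0.901). That of miR-21* was most like miR-147 (r = 0.905), miR-22* (r = 0.861) and miR-155 (r = 0.851). The arms were hardly alike after scaling (r = 0.05), while without scaling they were (r = 0.977), as all these pairs were, at 0.909 to 0.992. These values describe the arrays, which share their scaling, their slide and, for miR-21*, a difference between the groups.

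**Figure D5:**
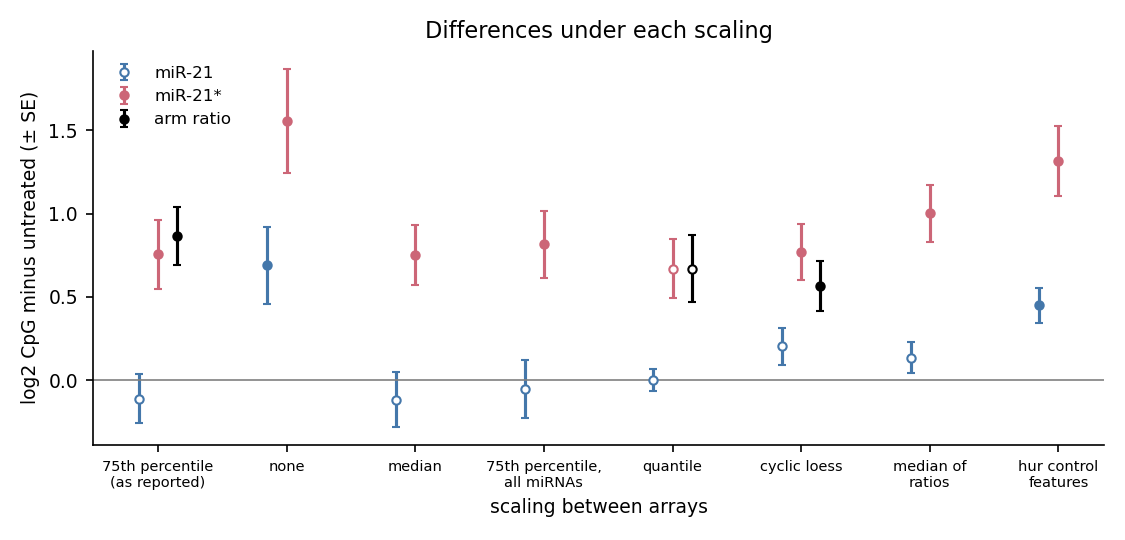
Log2 difference between CpG and untreated samples (± SE) for miR-21 (blue) and miR-21* (red) under 8 ways of scaling the arrays, and for their ratio (black) where the scaling can change it. Filled points passed the limma adjusted threshold and open points did not; miR-21 runs from -0.12 to 0.69 and miR-21* from 0.67 to 1.56.

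All 4 miRNAs listed for myeloid and dendritic cells were detected on all arrays, namely miR-223, miR-142-3p, miR-142-5p and miR-155. Being listed does not mean that other cells lack them. Their summed signal was 2891 to 3786 units in untreated and 5006 to 10204 in CpG samples, of which miR-155 gave 415 to 1010 and 2383 to 5490. After scaling 1 of them rose, miR-155, which is also on the Toll-like receptor list, and 1 fell, miR-223, at -0.60 (limma adjusted p = 0.0284). The erythroid miR-451 and miR-144 and the 4 endothelial and stromal markers on the array were detected on 0 arrays, with summed signals of at most 3.07 and 2.61 units, as were the 5 markers of other tissues. Of the lymphoid list 3 of 4 were detected, miR-181a, miR-181b and miR-342-3p, which other cells also express, while miR-150 was not, and the list's sum was 945 to 1103 units in untreated and 1146 to 1848 in CpG samples. Its 3 tested members were not called, at a median of -0.24. In bulk RNA, fewer cells of a type and less of a miRNA per cell cannot be told apart.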

How the data were processed

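Total RNA of 8 samples carried 1 dye, Cy3, on mouse miRNA arrays of 1 slide, with 1 sample per array. The authors deposited spot intensities made, per the file headers, by version 9.5.3.1 of Agilent's Feature Extraction with spatial detrending on and a separate background correction off, a total gene intensity with a detection flag per miRNA, and a table of 260 miRNAs; all 2009 of its mouse values compared equalled the total gene signal within 0.1%. limma is named, without version or role, in the submitters' processing notes.

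Processed signals were averaged over spots without outlier flags, then over probes, divided by the array's 75th percentile over 177 mouse miRNAs detected on all arrays, floored at 0.0107 (log2 -6.54) and put on the log2 scale. A miRNA was tested if detected on at least 3 of 4 arrays of a group (212), and a pair if both arms were (21). The test between groups was limma's (version 3.58.1, run under R 4.3.3, two-sided, Benjamini-Hochberg, threshold 0.05), checked on simulated data; array-level values by exact permutation of 70 arrangements. Members, lists, named-miRNA rule (both arms; listed Toll-like receptor miRNAs; the 3 most correlated miRNAs per arm; seed sharers; called pairs) and alternatives were chosen with earlier results of these data known. The deposited labels use the same replicate numbers in both groups, and the sample descriptions give same-numbered samples the same DC number, with and without CpG. Same-numbered arrays lay side by side on the slide. The main test did not treat same-numbered samples as pairs. Deviations of same-numbered arrays correlated at -0.26 to 0.28, over 0.1 in 2 of 4 pairs. Those of differently numbered arrays correlated at -0.64 to 0.72, so these values cannot decide whether the numbers pair the samples. Sequences are RefSeq's (GRCm38.p6). The number of arrays limits precision.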

Additional observations from a re-analysis of the deposited data

Results flagged for a closer look

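Of 54 groups of 4 arrays examined, 1 had an outlying array by Dixon's criterion, which chance alone meets in about 1 group in 20. On untreated replicate 2, 203 mouse miRNAs were called detected, against a mean of 192 on the other untreated arrays.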

How the results depend on the processing

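The difference of miR-21 (-0.11) was above 0 without scaling (0.689, limma adjusted p = 0.0396), in the authors' table (0.687), with hur scaling (0.449), cyclic loess (0.205), median-of-ratios (0.134), normexp background (0.099) and the brightest probe (0.015); it was 0 with quantile normalization, and -0.159 to -0.037 leaving out 1 array. That of miR-21* (0.756) passed in 18 of 33 alternatives. It did not pass with quantile normalization (0.67), the dimmest probe (0.637), no filter on dim miRNAs (0.756, limma adjusted p = 0.14), within slide row 1 (1.035) or row 2 (0.477) or without CpG replicates 2 and 4 (0.633), and ranged from 0.586 to 0.844 leaving out 1 array. The arm ratio (0.866) passed in 23 of 29. It did not pass within row 1 (1.116) or row 2 (0.617), without CpG replicates 2 and 4 (0.709) or with quantile normalization (0.67, added after seeing the data). It ranged from 0.745 to 0.938 leaving out 1 array. Quantile normalization holds the brightest miRNA, here miR-21, at the same value on each array, so that the ratio's 0.67 is the difference of miR-21* alone. Normexp turned miR-21* to -0.065, the arm ratio to -0.164 and those of miR-22* to -0.301, miR-29b* to -0.632 and miR-674* to 0.164; its offset of 50 exceeds the untreated miR-21* signal of 12.7 to 20.1. Whether replicate numbers pair the samples could not be decided. With the replicate block neither call passed, with miR-21* at 0.756 (limma adjusted p = 0.0668) and the arm ratio at 0.866 (limma adjusted p = 0.0512). Of the untreated arrays, 1 of 4 correlated best with its own number. The share difference (1.156 points) was 3.248 with normexp and 1.99 with the dimmest probe (exact permutation p = 0.0286 each), and 0.633 to 1.78 leaving out 1 array. The normexp offset of 50 enters the summed signal for every miRNA, so that the normexp share also depends on array brightness. Called miRNAs (30, 16 higher and 14 lower) numbered 88 without scaling (88 higher), 93 in the authors' table (93 higher), 72 with hur (70 higher), 138 with normexp (132 lower), 18 with median scaling (11 higher), 19 with quantile (9 higher), 16 with the brightest probe (12 higher), 3 with no filter, 48 with the floor 2 times higher (34 lower), 4 without CpG replicates 2 and 4, and 5 to 68 leaving out 1 array. Called pairs (5) numbered 1 with normexp, 0 without CpG replicates 2 and 4 (limma; 6 at an unadjusted p under 0.05), 2 with quantile and 9 with no filter (both added after seeing the data), and 4 to 6 leaving out 1 array. miR-146b (-0.072) was above 0 without scaling (0.727), in the authors' table (0.725), with hur (0.487), quantile (0.185), median-of-ratios (0.172), loess (0.098), brightest probe (0.075), normexp (0.052) and without CpG replicates 2 and 4 (0.05), and ran from -0.134 to 0.009 leaving out 1 array. Other causes were not tested. On signal over background, the 13- and 12-base miR-21* probes limit what can be read in untreated samples.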
